A study of Mus musculus with 15 samples.

Results

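Calpains, their inhibitor calpastatin and the caspases were followed as 8 genes named for their roles: Capn1, Capn2, Capn3, Capns1, Cast, Casp6, Casp8 and Casp9. They were picked by name from the 55416 genes of the deposited tables, with earlier results of these data known. All 8 passed the filter on low counts. The 15 RNA sequencing libraries came from tibialis anterior, the muscle along the front of the shin, of male C57BL/6 mice (C57BL/6NCrlOri) aged 6 to 8 weeks. Mice of 3 groups had received 5000000 KrasIKKaL cells, a tumour cell line, into the trachea. One of these groups was given 200 µg per kg of an antibody to PD-L1 (clone 10F.9G2, anti-PD-L1, n = 3). Another was given 200 µg of an antibody to CD8a (clone 2.43, anti-CD8a, n = 3), both by injection into the abdomen 3 times a week. The remaining tumour group was given a rat isotype antibody (IgG, n = 4), which one label field calls anti-IgG. Control mice received no tumour cells and no antibody is named for them (control, n = 5), so tumour and antibody cannot be told apart in any comparison with the control group. The cells are a single line, and the labels do not say whether each library came from its own mouse.

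Calpains are calcium-activated cysteine proteases of the cytoplasm that cut a limited number of sites in their substrates. Calpain-1 and calpain-2, encoded by Capn1 and Capn2, each pair with the small regulatory subunit encoded by Capns1, and calpastatin, encoded by Cast, is their specific inhibitor. Capn3 encodes the calpain of skeletal muscle, which binds titin in the sarcomere and whose loss in people causes a limb-girdle muscular dystrophy. Caspases are proteases that cut after aspartate and carry out apoptosis. Caspase-8 starts the route from death receptors, caspase-9 is activated on the apoptosome after cytochrome c leaves mitochondria, and caspase-6 is an effector caspase. In wasting muscle, calpains and caspases are studied as enzymes that release proteins from the sarcomere.

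RefSeq start sites on build GRCm38.p6 gave 13 promoter windows for the 8 genes, each of 300 bases. The windows of Cast, Capn3 and Capns1 are shown because these 3 genes differed most in count among the calpain genes, and Cast in transcript length as well. Cast has 4 annotated starts, so its transcripts can begin at places far apart on chromosome 13, and Capn3 has 2 on chromosome 2. Each sequence reads 5′ to 3′ on the strand of the gene, with 250 bases before the start in lower case and the 50 bases from the start on in capitals.
Cast, chr13:74808711-74809010, minus strand: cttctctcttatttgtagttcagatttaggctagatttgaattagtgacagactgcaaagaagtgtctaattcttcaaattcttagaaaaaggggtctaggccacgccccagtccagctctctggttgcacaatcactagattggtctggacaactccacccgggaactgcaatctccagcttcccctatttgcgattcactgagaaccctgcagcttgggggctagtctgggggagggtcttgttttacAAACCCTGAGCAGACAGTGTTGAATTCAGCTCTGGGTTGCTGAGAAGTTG
Cast, chr13:74807911-74808210, minus strand: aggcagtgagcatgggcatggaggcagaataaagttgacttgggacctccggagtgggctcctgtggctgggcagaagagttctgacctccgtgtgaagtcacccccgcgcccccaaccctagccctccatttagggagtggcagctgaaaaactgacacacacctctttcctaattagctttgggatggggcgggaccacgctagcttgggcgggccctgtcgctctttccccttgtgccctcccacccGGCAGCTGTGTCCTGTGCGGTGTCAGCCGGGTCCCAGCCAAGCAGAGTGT
Cast, chr13:74770687-74770986, minus strand: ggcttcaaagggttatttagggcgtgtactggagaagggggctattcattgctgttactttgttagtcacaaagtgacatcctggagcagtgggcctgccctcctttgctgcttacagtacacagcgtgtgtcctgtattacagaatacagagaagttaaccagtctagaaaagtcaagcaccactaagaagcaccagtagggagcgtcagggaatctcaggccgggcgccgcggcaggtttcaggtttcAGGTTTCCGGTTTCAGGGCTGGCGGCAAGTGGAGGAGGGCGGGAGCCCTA
Cast, chr13:74734212-74734511, minus strand: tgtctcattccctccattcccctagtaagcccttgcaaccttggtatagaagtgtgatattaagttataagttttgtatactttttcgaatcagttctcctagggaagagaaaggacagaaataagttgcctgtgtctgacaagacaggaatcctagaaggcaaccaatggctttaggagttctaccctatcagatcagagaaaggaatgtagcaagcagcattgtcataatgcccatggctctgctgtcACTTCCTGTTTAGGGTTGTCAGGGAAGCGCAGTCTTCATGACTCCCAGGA
Capn3, chr2:120463343-120463642, plus strand: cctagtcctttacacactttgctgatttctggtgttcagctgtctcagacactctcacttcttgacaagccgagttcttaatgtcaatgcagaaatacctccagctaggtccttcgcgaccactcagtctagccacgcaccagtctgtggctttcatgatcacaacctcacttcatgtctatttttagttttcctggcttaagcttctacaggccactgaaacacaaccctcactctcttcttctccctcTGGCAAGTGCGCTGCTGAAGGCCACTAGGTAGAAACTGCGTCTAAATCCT
Capn3, chr2:120476659-120476958, plus strand: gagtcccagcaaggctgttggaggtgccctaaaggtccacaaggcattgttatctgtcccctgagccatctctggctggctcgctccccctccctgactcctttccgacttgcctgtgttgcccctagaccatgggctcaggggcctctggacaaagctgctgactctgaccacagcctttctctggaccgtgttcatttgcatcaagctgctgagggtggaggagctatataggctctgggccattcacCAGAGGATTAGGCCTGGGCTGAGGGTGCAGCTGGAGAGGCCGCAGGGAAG
Capns1, chr7:30195104-30195403, minus strand: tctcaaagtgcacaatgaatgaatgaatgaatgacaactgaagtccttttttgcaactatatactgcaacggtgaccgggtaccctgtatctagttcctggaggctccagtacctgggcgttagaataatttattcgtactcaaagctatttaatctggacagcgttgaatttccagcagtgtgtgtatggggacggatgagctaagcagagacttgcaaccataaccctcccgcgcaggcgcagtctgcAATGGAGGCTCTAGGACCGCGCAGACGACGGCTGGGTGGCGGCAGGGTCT
The letters TGTTTAC, the core of forkhead factor sites, were in none of the 13 windows on either strand, against 3.65% of all 32851 windows of the table. The letters TGACNNNGC, the core of the antioxidant response element, were in the Cast windows that start at base 74807911 and at base 74734212, and in 12.4% of all windows. The 2 motifs do not overlap. A match describes these letters and is not a site, and no match says only that the letters are not in these windows.

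Library totals ran between 15894846 and 22459377 expected counts, and 14372 genes passed the filter. Fibre genes such as Ckm and Acta1 were high in every library: the summed level of 9 fibre markers was 54219 to 94897 TPM (counts scaled by transcript length and depth) in anti-PD-L1, 64864 to 80737 in anti-CD8a, 53962 to 74267 in IgG and 69407 to 101819 in control libraries. The tissue label therefore had its markers. Mitochondrially encoded genes took 11.1% to 14.4% of counts in anti-PD-L1, 20.2% to 23.1% in anti-CD8a, 12.8% to 16.7% in IgG and 17.6% to 23.0% in control libraries. TPM was shifted between groups. Over all tested genes, the median log2 ratio of group mean TPM was 0.42 in anti-PD-L1 against control and 0.21 in IgG against control. For that reason TPM is used here to set genes side by side within a library, and CPM (counts scaled by depth alone, with the trimmed mean of M-values, TMM) to set groups side by side. In whole muscle, fewer cells of a type and less RNA per cell cannot be told apart.

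Within a library, the small subunit had the highest level per length of the 8 genes and the caspases the lowest. Capns1 averaged 164 ± 13.0 TPM in anti-PD-L1, 106 ± 5.72 in anti-CD8a, 186 ± 33.8 in IgG and 97.8 ± 5.73 in control libraries (SD). Among the catalytic subunits, Capn2 at 28.2 ± 4.24 TPM and Capn3 at 27.0 ± 8.03 TPM overlapped in IgG libraries, and both lay above Capn1 at 15.1 ± 0.806 TPM. In control libraries Capn3 came first, at 43.3 ± 2.38 TPM, with Capn1 at 20.5 ± 2.29 and Capn2 at 18.4 ± 2.35 TPM, whose ranges overlapped. The 3 caspases stayed under 3 TPM in every library, with 20 to 52 counts for Casp6, 13 to 106 for Casp8 and 19 to 84 for Casp9. The fitted intervals of the caspases were wider than those of the calpain genes.

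**Figure D1:**
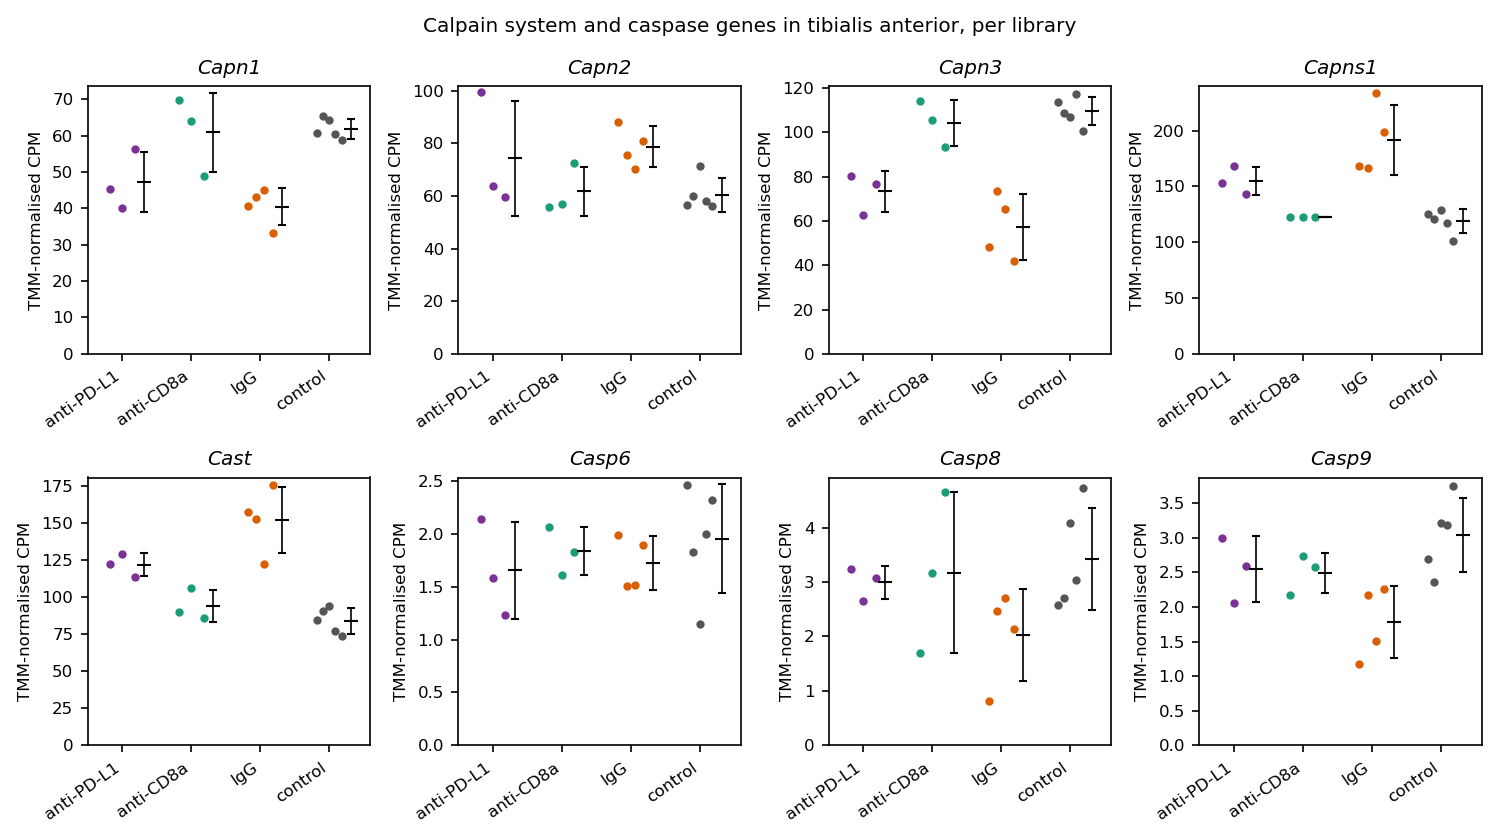
TMM-normalised CPM of the 8 genes, on linear axes from 0, with 1 point per library and the mean ± SD beside each group; groups run anti-PD-L1 (n = 3), anti-CD8a (n = 3), IgG (n = 4) and control (n = 5). Cast lies between 122 and 176 CPM in IgG and between 73.6 and 94.2 in control libraries, Capn3 lies lower in every IgG than in every control library, and the caspases stay under 5 CPM.

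Set against the control group, in counts not divided by transcript length, IgG muscle had more Cast, Capns1 and Capn2 message and less Capn3, Capn1 and Casp9. Capn2 did not pass in 9 of 17 alternatives, and in TPM the Casp9 ranges overlapped. Anti-PD-L1 muscle had Cast and Capns1 higher and Capn3 and Capn1 lower, with smaller fitted values, although none of the 8 passed in the direct comparison with IgG. In anti-PD-L1 against control, the Capn1 call was lost in 11 of 16 alternatives, that of Capns1 in 10 and that of Capn3 in 1. None of the 8 passed in anti-CD8a against control. With edgeR's quasi-likelihood test and an adjusted p under 0.05 over all genes, 6 of the 8 genes were called in IgG against control, 3 higher and 3 lower. Of all genes tested, 58.5% were called, 30.2% higher and 28.4% lower. The count was 4 of 8 in anti-PD-L1 against control (34.7% of all genes called) and 0 of 8 in anti-CD8a against control (0.0139%, which is 2 genes). In anti-CD8a against IgG 4 of 8 were called, beside 48.0% of all genes. It was 0 of 8 in anti-PD-L1 against IgG (5.5%) and 0 of 8 in anti-PD-L1 against anti-CD8a (19.7%). With 8 genes these counts stand near the background and are no result about the genes as a group, so what follows concerns which of them moved and by how much. Comparisons that share a group share its libraries, and are not independent of each other.

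Ranges gave a like picture. On the CPM scale the libraries of IgG and control did not overlap for 5 of 8 genes, Capn1, Capn3, Capns1, Cast and Casp9, as for 47.7% of all genes tested. Those of anti-PD-L1 and control did not overlap for Capn1, Capn3, Capns1 and Cast (37.8% of all genes), and those of anti-CD8a and control overlapped for all 8 (9.56% of all genes did not). Anti-CD8a and IgG did not overlap for the same 4 genes (47.8%), anti-PD-L1 and anti-CD8a did not for Capn3, Capns1 and Cast (38.3%), and anti-PD-L1 and IgG overlapped for all 8 (11.9% of all genes did not).

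**Figure D2:**
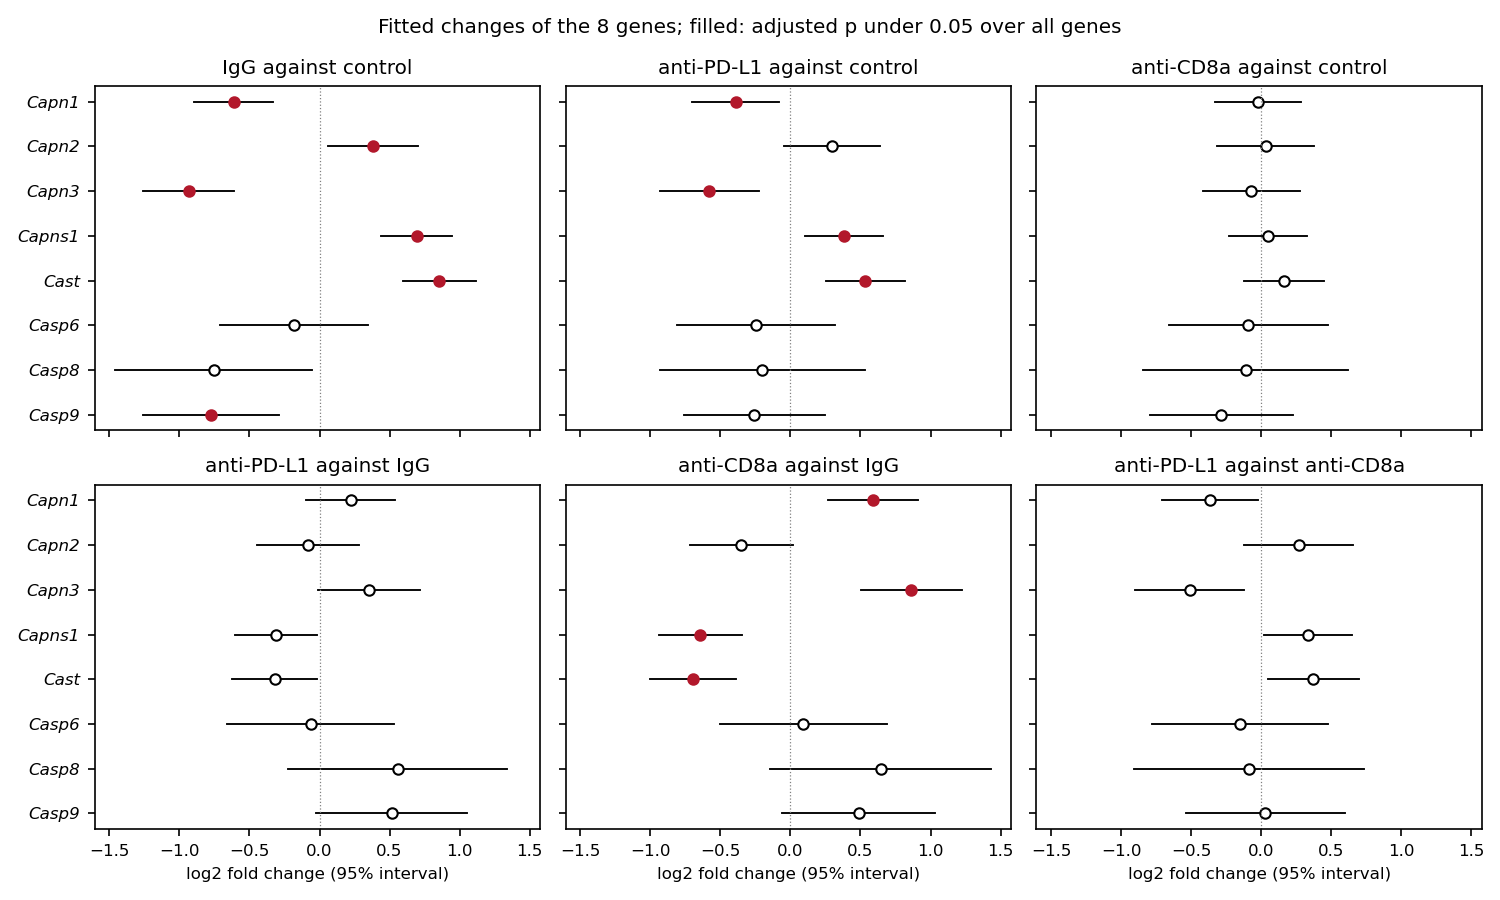
Fitted log2 fold changes of the 8 genes in each of the 6 comparisons, with 95% intervals; filled points passed an adjusted p under 0.05 over all 14372 genes. In IgG against control, Cast at 0.86 and Capn3 at -0.93 lie farthest from 0 among the calpain genes, and in anti-CD8a against control all 8 intervals include 0.

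Capn3, the muscle calpain, had 80.2, 62.8 and 76.8 CPM in anti-PD-L1 libraries and 114, 106 and 93.2 CPM in anti-CD8a libraries. It had 48.1, 73.7, 65.5 and 42.0 CPM in IgG libraries, against 114, 109, 107, 117 and 101 CPM in control libraries. IgG replicates 1 and 4 lay lowest of all 15, and no IgG or anti-PD-L1 library reached the control range. Capn3 fell by 0.93 on the log2 scale in IgG against control (SE 0.15, adjusted p = 9.98e-05). It fell by 0.58 in anti-PD-L1 against control (SE 0.17, adjusted p = 0.0144), a call that was lost without anti-PD-L1 replicate 2 (adjusted p = 0.0841). It was higher by 0.86 in anti-CD8a than in IgG muscle (SE 0.17, adjusted p = 0.000791). The interval in anti-CD8a against control ran from -0.42 to 0.28. Between anti-PD-L1 and IgG the difference was 0.35 (adjusted p = 0.195, 95% interval -0.01 to 0.72), and it passed without IgG replicate 2 (0.50, adjusted p = 0.0442). Between anti-PD-L1 and anti-CD8a it was -0.51 (adjusted p = 0.0612), and it passed with DESeq2's test (adjusted p = 0.0213), with DESeq2 size factors (0.0437) and with upper-quartile scaling (0.0422).

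Capn1, the catalytic subunit of calpain-1, had 45.2, 40.1 and 56.4 CPM in anti-PD-L1 and 69.8, 64.2 and 48.9 CPM in anti-CD8a libraries. It had 40.7, 43.0, 44.9 and 33.3 CPM in IgG libraries, against 60.7, 65.3, 64.4, 60.4 and 58.8 CPM in control libraries. All IgG libraries lay below all control libraries, and anti-CD8a replicate 3 lay below the control range. Capn1 fell by 0.61 on the log2 scale in IgG against control (SE 0.13, adjusted p = 0.00107) and was higher by 0.59 in anti-CD8a than in IgG muscle (SE 0.15, adjusted p = 0.00461). In anti-PD-L1 against control it was lower by -0.39 (SE 0.15, adjusted p = 0.0479). That last call was lost in 11 of 16 alternatives. Among them were leaving out any 1 control library or anti-PD-L1 replicate 1 or 2, at adjusted p-values of 0.0604 to 0.223. Others included no filter on low counts (0.135) and no mitochondrial genes (0.0502). In anti-PD-L1 against anti-CD8a it passed without anti-PD-L1 replicate 3 or anti-CD8a replicate 3, at -0.51 and -0.52.

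Capn2, the catalytic subunit of calpain-2, had 99.5, 63.8 and 59.7 CPM in anti-PD-L1 and 55.8, 57.1 and 72.5 CPM in anti-CD8a libraries. It had 88.1, 75.8, 70.2 and 81.1 CPM in IgG libraries, against 56.6, 60.1, 71.6, 58.1 and 56.0 CPM in control libraries. Control replicate 3 reached into the IgG range, and anti-PD-L1 replicate 1 was the highest of all. Capn2 rose by 0.38 on the log2 scale in IgG against control (SE 0.15, adjusted p = 0.0390). The call was lost without control replicate 1, 2, 4 or 5 and without IgG replicate 1 or 4 (adjusted p of 0.0724 to 0.122) and without a filter on low counts (0.0722), and with upper-quartile scaling the value was 0.13 (adjusted p = 0.474). No other comparison passed for Capn2: its difference between anti-CD8a and IgG was -0.35 (adjusted p = 0.105, 95% interval -0.72 to 0.02).

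Capns1, the regulatory subunit shared by calpain-1 and calpain-2, had 153, 168 and 143 CPM in anti-PD-L1 libraries and 123 CPM in each of the 3 anti-CD8a libraries. It had 168, 166, 233 and 198 CPM in IgG libraries, against 125, 120.4, 129, 117 and 101 CPM in control libraries. IgG and anti-PD-L1 libraries all lay above the control range. Capns1 rose by 0.69 on the log2 scale in IgG against control (SE 0.12, adjusted p = 0.000164) and was lower by -0.64 in anti-CD8a than in IgG muscle (SE 0.14, adjusted p = 0.00160). It was higher by 0.38 in anti-PD-L1 than in control muscle (SE 0.13, adjusted p = 0.0330), a call lost without control replicate 2, 4 or 5 and without anti-PD-L1 replicate 1 or 2 (adjusted p of 0.0603 to 0.138). In all, 10 of 16 alternatives lost it, among them DESeq2 size factors (0.0627), upper-quartile scaling (0.162) and no filter on low counts (0.107). The difference between anti-PD-L1 and IgG was -0.31 (adjusted p = 0.164, 95% interval -0.60 to -0.02).

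Cast, the calpain inhibitor, had 123, 129 and 114 CPM in anti-PD-L1 libraries and 89.9, 107 and 86.0 CPM in anti-CD8a libraries. It had 158, 153, 122 and 176 CPM in IgG libraries, against 84.4, 90.8, 94.2, 77.5 and 73.6 CPM in control libraries. Anti-PD-L1 libraries lay between the control and most IgG libraries, overlapping IgG replicate 3, and anti-CD8a libraries overlapped the control range. Cast rose by 0.86 on the log2 scale in IgG against control (SE 0.12, adjusted p = 3.25e-05), 1.81-fold, and by 0.54 in anti-PD-L1 against control (SE 0.13, adjusted p = 0.00657). It was lower by -0.69 in anti-CD8a than in IgG muscle (SE 0.14, adjusted p = 0.00115). These 3 calls held under every alternative that was run. In anti-CD8a against control the value was 0.16 (95% interval -0.12 to 0.45). The difference between anti-PD-L1 and IgG was -0.32 (adjusted p = 0.161), and between anti-PD-L1 and anti-CD8a 0.37 (adjusted p = 0.0936).

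The balance of inhibitor to protease message can be read within each library, where depth drops out but the division by transcript length does not. Mean Cast transcript length was 2969 bases in IgG and 3755 in control libraries, and a shorter length raises TPM. On the CPM scale Cast, Capn1 and Capn2 averaged 152, 40.5 and 78.8 in IgG libraries and 84.1, 61.9 and 60.5 in control libraries. Cast over the sum of Capn1 and Capn2, as a ratio of TPM, was 0.788, 1.18 and 0.907 in anti-PD-L1 and 0.517, 0.674 and 0.573 in anti-CD8a libraries. It was 1.42, 1.20, 1.05 and 1.71 in IgG libraries, against 0.570, 0.614, 0.580, 0.503 and 0.494 in control libraries. Calpastatin message thus exceeded that of both calpains together in all 4 IgG libraries and in anti-PD-L1 replicate 2 alone of the other 11. Capn2 over Capn1 averaged 1.501 ± 0.516 in anti-PD-L1, 0.965 ± 0.319 in anti-CD8a, 1.87 ± 0.316 in IgG and 0.899 ± 0.0805 in control libraries (SD). Capn3 made up 42.8 ± 2.86% of the summed TPM of the 3 catalytic genes in anti-PD-L1, 54.9 ± 2.58% in anti-CD8a, 37.9 ± 8.45% in IgG and 52.8 ± 2.82% in control libraries. That sum itself was 85.3 ± 9.36 TPM in anti-PD-L1, 89.2 ± 11.1 in anti-CD8a, 70.4 ± 6.88 in IgG and 82.2 ± 5.45 in control libraries. These ratios and shares were not tested.

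The mix of Cast transcripts also differed between groups. The deposited mean transcript length of Cast, each transcript weighted by its abundance, was 3355, 3227 and 3356 bases in anti-PD-L1 and 4106, 3972 and 3754 bases in anti-CD8a libraries. It was 2747, 3310.2, 3095 and 2725 bases in IgG libraries, against 3794, 3545, 3665, 3923 and 3847 bases in control libraries. Every IgG and every anti-PD-L1 library lay below every control and every anti-CD8a library. Lower lengths with no overlap were seen for 4.44% of the 12209 tested genes with 2 or more transcripts in IgG against control, and for 4.52% in anti-PD-L1 against control. For anti-PD-L1 below anti-CD8a the share was 8.98%, and for anti-CD8a above IgG 7.17%. The mean difference between IgG and control was -786 bases, and it stayed between -899 and -704 bases when any 1 library was left out. In the GENCODE annotation of release M21, whose transcript names matched all 13 Cast transcripts of the tables, the 2 longest coding transcripts are 4765 and 5141 bases and the other 6 coding ones are 1529 to 2910 bases. The mean length falls when a larger share of Cast message is assigned to the shorter transcripts. Because TPM divides by this length, Cast differed more in TPM (log2 of the means 1.46 in IgG over control, where the median of all genes was 0.21) than in CPM.

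**Figure D3:**
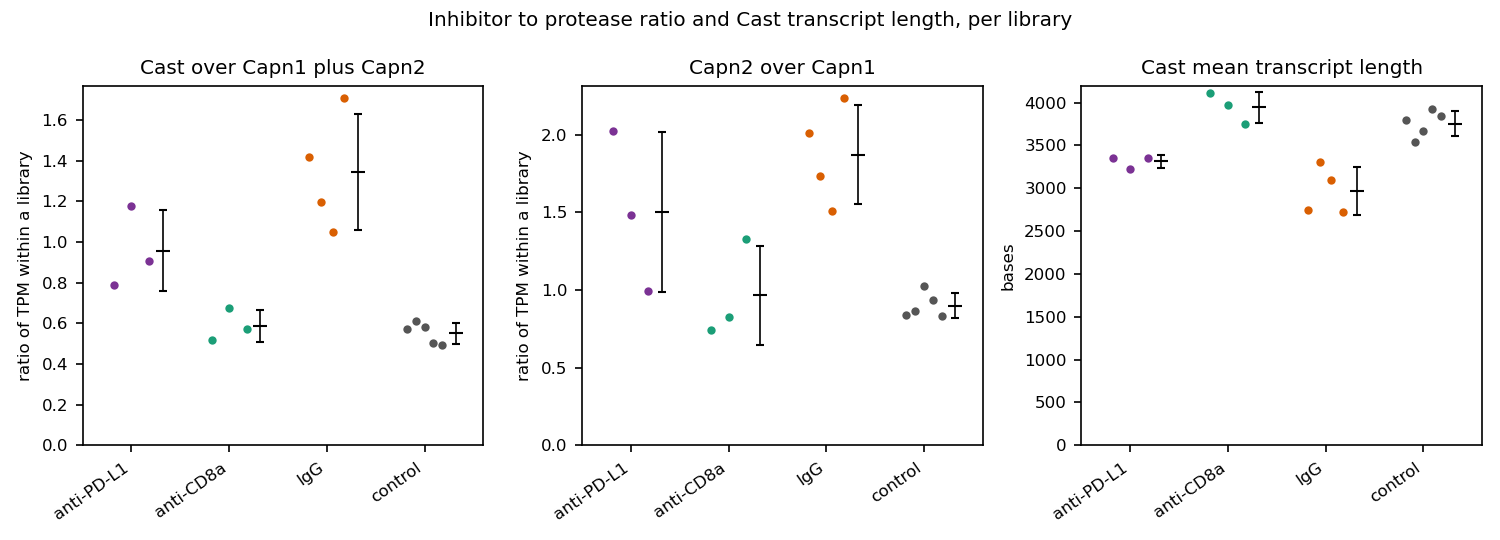
Ratio of Cast to the sum of Capn1 and Capn2 in TPM, ratio of Capn2 to Capn1 in TPM, and mean Cast transcript length in bases, on axes from 0, with 1 point per library and the mean ± SD; groups run anti-PD-L1, anti-CD8a, IgG and control. The Cast ratio is 1.05 to 1.71 in IgG and 0.494 to 0.614 in control libraries, and Cast length is 2725 to 3310.2 bases in IgG and 3545 to 3923 bases in control libraries.

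Of the other 7 genes, Capn3 was the only one whose mean transcript length separated 2 groups: it was 2073 to 2334 bases in anti-CD8a libraries, against 2354 to 2599 bases in control libraries, where 2.56% of genes were lower with no overlap. Casp9 ran from 1535 to 3897 bases among IgG libraries, and from 3119 to 3897 bases among control libraries.

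Casp9, the caspase of the mitochondrial route, had 3.003, 2.06 and 2.59 CPM in anti-PD-L1 and 2.18, 2.74 and 2.57 CPM in anti-CD8a libraries. It had 1.18, 2.17, 1.51 and 2.26 CPM in IgG libraries, against 2.69, 2.36, 3.22, 3.19 and 3.74 CPM in control libraries. All 4 IgG libraries lay below the control range, replicates 2 and 4 close to its lowest value and replicates 1 and 3 farther from it. Casp9 fell by 0.77 on the log2 scale in IgG against control (SE 0.23, adjusted p = 0.00861), a call that no alternative removed. In TPM, which divides by the transcript length given above, IgG libraries averaged 0.818 ± 0.346 and control libraries 0.838 ± 0.299 (SD), with overlap. In the other 5 comparisons Casp9 did not pass, and in anti-CD8a against IgG it did with upper-quartile scaling (0.71, adjusted p = 0.0408).

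Casp8, the caspase that death receptors activate, had 3.24, 2.66 and 3.08 CPM in anti-PD-L1 and 1.69, 3.17 and 4.65 CPM in anti-CD8a libraries. It had 0.807, 2.47, 2.71 and 2.14 CPM in IgG libraries, against 2.58, 2.71, 4.08, 3.03 and 4.73 CPM in control libraries. IgG replicate 1 was far below the rest. The difference between IgG and control was -0.76 on the log2 scale (SE 0.33, adjusted p = 0.0611), and it passed in 5 of 17 alternatives. These were upper-quartile scaling (adjusted p = 0.0213), DESeq2's test (0.0390), no filter on low counts (0.0498), and leaving out control replicate 1 (0.0496) or IgG replicate 3 (0.0460). Without IgG replicate 1 the value was -0.51 (adjusted p = 0.162). In anti-CD8a against IgG it passed without anti-CD8a replicate 1 (0.96, adjusted p = 0.04996). Macrophages, which express Casp8, were measured by 8 markers, whose summed level was 176 to 578 TPM in anti-PD-L1, 48.0 to 182 in anti-CD8a, 51.9 to 100.2 in IgG and 61.1 to 134 in control libraries. Lyz2 alone reached 407 TPM in anti-PD-L1 libraries, and the markers did not move together. Cd68 was at 6.08 to 46.0 TPM in IgG and 2.08 to 3.21 in control libraries. In IgG libraries Adgre1, Csf1r, C1qa and Mrc1 lay below the control range, and Lyz2, C1qb and Ptprc overlapped it. The part of macrophages in the Casp8 values was not tested. The 6 T cell markers summed to at most 2.14 TPM in any library, with Cd8a at 0 to 0.07 TPM.

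Casp6, an effector caspase, had 2.15, 1.59 and 1.23 CPM in anti-PD-L1 and 2.07, 1.61 and 1.83 CPM in anti-CD8a libraries. It had 1.99, 1.505, 1.51 and 1.89 CPM in IgG libraries, against 2.47, 1.83, 1.15, 2.001 and 2.32 CPM in control libraries. The 4 groups overlapped throughout. Casp6 passed in no comparison, and in IgG against control its 95% interval ran from -0.71 to 0.34 on the log2 scale.

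The counts of 0 above depended in part on the tool. In anti-CD8a against control no member had an unadjusted p under 0.05 and DESeq2 called none, while over all genes edgeR called 2 with 1109 at an unadjusted p under 0.05, and DESeq2 called 68. The 95% intervals there were -0.33 to 0.28 for Capn1, -0.32 to 0.38 for Capn2, -0.23 to 0.33 for Capns1, -0.85 to 0.62 for Casp8 and -0.80 to 0.22 for Casp9. In anti-PD-L1 against IgG, Capns1 and Cast had an unadjusted p under 0.05, and DESeq2 called no member. In anti-PD-L1 against anti-CD8a, Capn1, Capn3, Capns1 and Cast did, and DESeq2 called Capn3 alone.

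Genes that followed each member across the 15 libraries were found by the Pearson correlation of log2 CPM among 11459 other genes, as a description. The libraries share groups, so the correlation after group means were taken out is given with it. For Cast these were Nuak1, a kinase (0.97, and 0.88 within groups), and Dcaf1, a ubiquitin ligase substrate receptor (0.97 and 0.81). For Capn3 they were Vamp1, a vesicle fusion protein (0.99 and 0.93), and Dcun1d2, a neddylation factor (0.99 and 0.93). For Capns1 they were the translation initiation subunit gene Eif3g (0.97 and 0.82) and the histone chaperone gene Nap1l1 (0.97 and 0.80). Capn1 was followed by the DNA repair gene Xrcc5 (0.96 and 0.83) and the ornithine carrier gene Slc25a15 (0.95 and 0.86), and Capn2 by Tsc2 (0.92 and 0.88) and Rbm19 (0.90 and 0.88). Casp9 was followed by Tax1bp3 (0.95 and 0.89) and Trim30d (0.94 and 0.88), and Casp8 by Akna (0.89 and 0.88) and Nrp1 (0.89 and 0.89). For Casp6 the values were lowest, with Dcun1d1 (0.75 and 0.75) and Tab1 (0.73 and 0.77).

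Other genes of the calpain system and of apoptosis were described from 6 lists, also chosen with earlier results of these data known. In IgG against control, 9 of 12 calpain binding partners and muscle substrates rose and 2 fell, beside 30.2% and 28.4% of all genes tested, with a median log2 change of 0.62 against -0.02 over all genes. Flnc, filamin C, a sarcomere scaffold, rose by 2.71 (SE 0.30, adjusted p = 3.24e-06), and Ankrd2 and Ankrd1, ankyrin repeat proteins that respond to stretch, rose by 2.56 and 2.52. Ankrd1 had 37.2 ± 8.04 CPM in IgG and 6.46 ± 1.12 CPM in control libraries (SD). Vcl, vinculin of cell adhesions, fell by 0.95, and Sptan1, a spectrin, fell by 0.49. With upper-quartile scaling, which shifts the median of all genes to -0.27, the count that rose was 5 in place of 9. Leaving out 1 library, that count ranged from 6 to 9. The count that fell was 1 without control replicate 2, 3 or 5 and without IgG replicate 1 or 3.

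In the mitochondrial apoptosis route 9 of 18 genes rose and 3 fell in IgG against control, with a median of 0.31. The 12 called stand near the 58.5% of all genes called. Those that rose included genes on both sides of the route: Bcl2l1 and Mcl1, which protect cells, rose by 1.90 (SE 0.40) and 1.12 (SE 0.19), and Bbc3 and Bcl2l11, which promote death, rose by 2.23 (SE 0.49) and 1.36 (SE 0.24). Bak1, a pore-forming member, rose by 1.00. Bid, Pmaip1, Bmf and Diablo, which also promote death, rose by 1.43, 2.42, 0.55 and 0.67. Of the genes that rose, only Bcl2l1 and Mcl1 protect cells. Pmaip1 averaged 0.102 CPM in control libraries, and Bmf did not pass in 5 of 17 alternatives. Cycs, cytochrome c, fell by 1.34 (SE 0.17, adjusted p = 9.61e-06), with 229.9 ± 34.4 CPM in IgG and 581 ± 91.3 CPM in control libraries, and Bcl2 and Htra2 fell by 1.05 and 0.48. Under upper-quartile scaling 7 genes of this list fell. Cycs moved beside the mitochondrial share of counts given above, and its part in the result was not tested.

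Of 4 other caspases described here, 0 rose and 1 fell in IgG against control, beside 30.2% and 28.4% of all genes tested. Casp12, a caspase linked to the endoplasmic reticulum, fell by 0.61. Casp1, the caspase of inflammasomes, was at -0.65 (adjusted p = 0.0717) and Casp2 at -0.33 (adjusted p = 0.202), and neither passed. The count that fell was 3 with upper-quartile scaling and 2 with the 2 groups fitted alone. The Casp12 call was lost without IgG replicate 4 (adjusted p = 0.0561). Of the other calpains, Capn6, an embryonic form without protease activity, fell by 2.26 (SE 0.34), Capn15 rose by 1.28 (SE 0.26) and Capn10 rose by 0.50. Capn10 did not pass in 7 of 17 alternatives, and the count of calpains that rose was 1 without control replicate 3 and without IgG replicate 2 or 4.

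Around death receptors 1 of 9 genes rose and 2 fell in IgG against control, where 58.5% of all genes were called. Tnfrsf1a, a tumour necrosis factor receptor, rose by 0.68, while Fadd, the adaptor that recruits caspase-8, fell by 0.92 and Cflar, its inhibitor, fell by 0.54. The count that fell was 1 without control replicate 4 and without IgG replicate 1 or 4, and the count that rose was 2 without control replicate 3 or IgG replicate 2. Among 8 caspase inhibitors and targets Birc6, a large inhibitor of apoptosis protein, rose by 1.46 (SE 0.17, adjusted p = 5.85e-06), Lmna by 0.77 and Birc2 by 0.44. Dffa, which holds the caspase-activated nuclease inactive, fell by 0.81 and Parp1 by 0.51. The count that fell was 1 without IgG replicate 3 or 4.

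**Figure D4:**
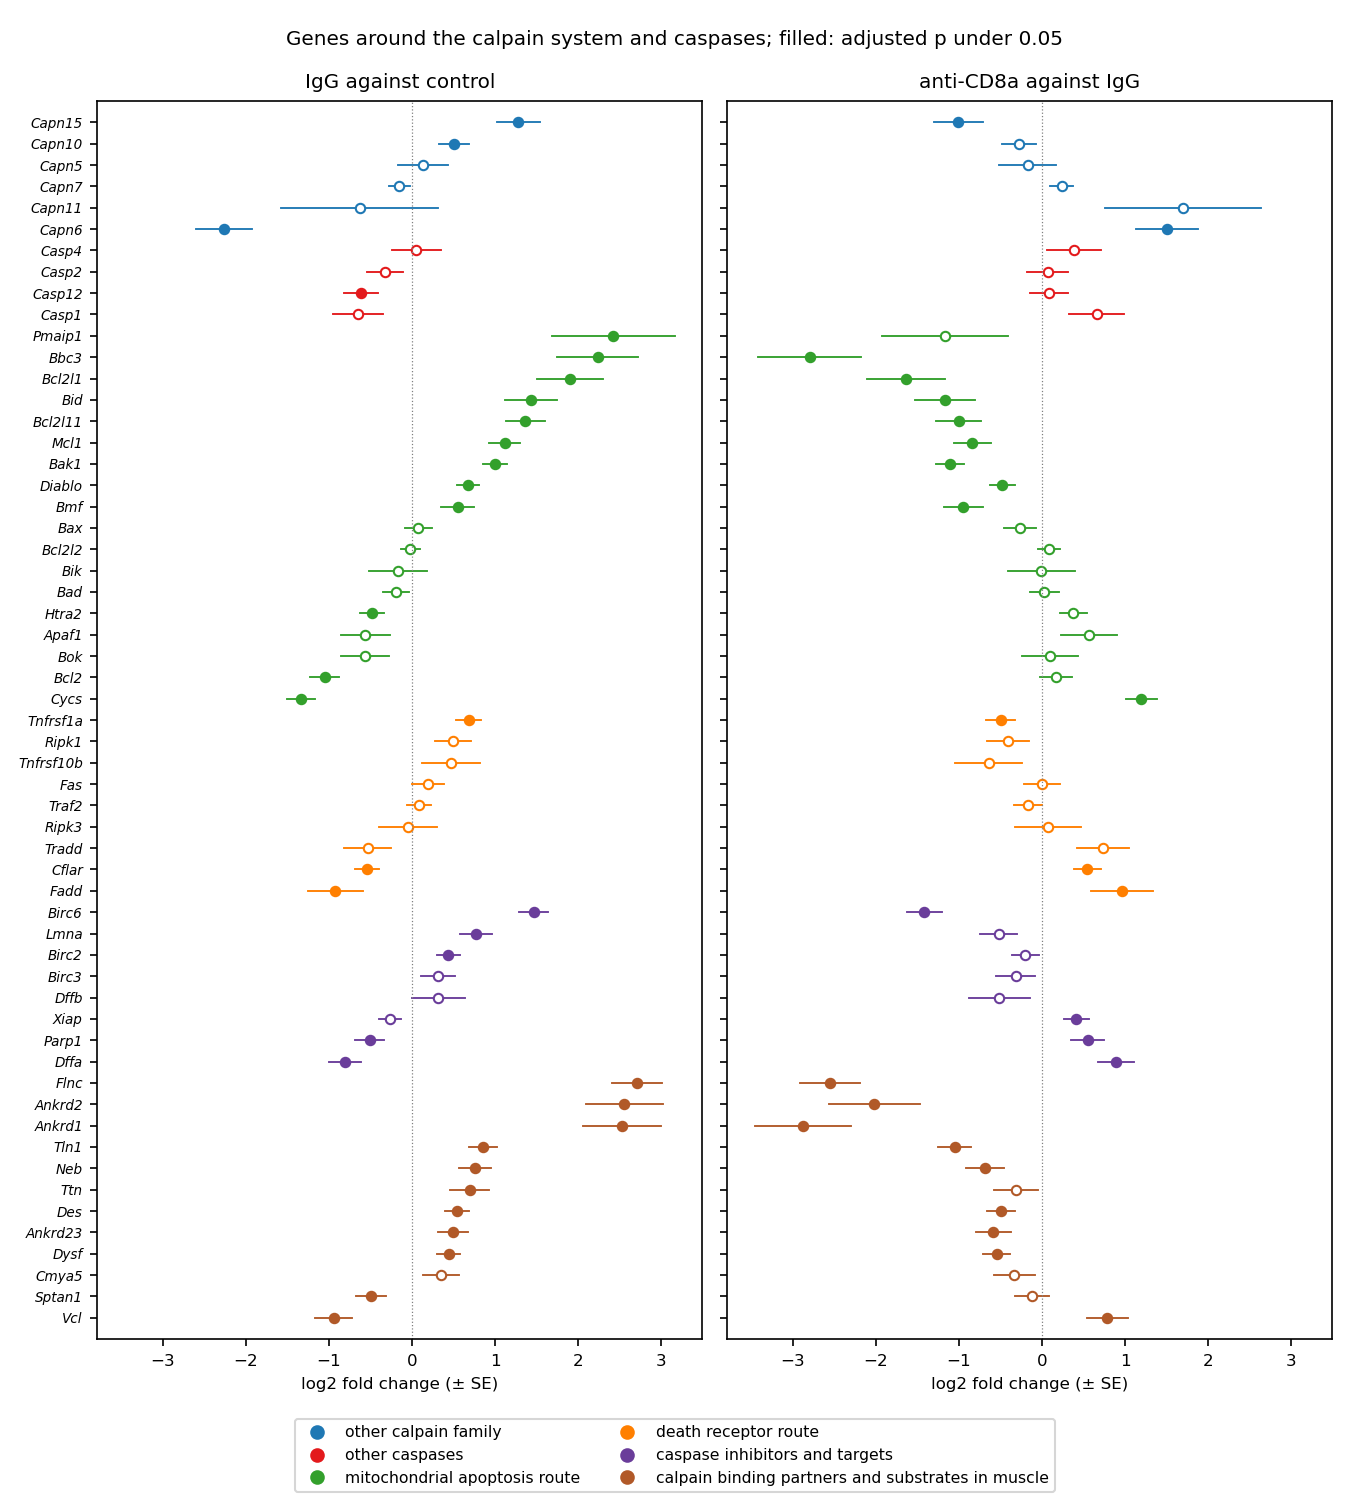
Log2 fold changes (± SE) of the tested genes of 6 lists around calpains and caspases, in IgG against control and in anti-CD8a against IgG; filled points passed an adjusted p under 0.05. Flnc, Ankrd1 and Ankrd2 lie at 2.52 to 2.71 in the first panel and at -2.88 to -2.02 in the second; the panels share the IgG libraries.

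In anti-CD8a against IgG, 8 of 12 partners and substrates were lower and 1 was higher, beside 24.8% lower and 23.2% higher over all genes. Flnc was lower by -2.55 (SE 0.36), Ankrd1 by -2.88 (SE 0.58), Ankrd2 by -2.02 (SE 0.55) and Tln1, talin of cell adhesions, by -1.05 (SE 0.20), while Vcl was higher by 0.79. The count that was lower was 5 without IgG replicate 1, and 4 without anti-CD8a replicate 3 or with upper-quartile scaling, and Vcl did not pass without IgG replicate 3. In the mitochondrial route 8 of 18 were lower, Bbc3 by -2.80, Bcl2l1 by -1.64, Bak1 by -1.11 and Mcl1 by -0.84 among them, and Cycs was higher by 1.20 (3 genes were higher without IgG replicate 2).

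In the same comparison Fadd and Cflar were higher, by 0.96 and 0.55, and Tnfrsf1a was lower by -0.50. Leaving out IgG replicate 1 or 4, or any 1 anti-CD8a library, left 1 death receptor gene higher, and leaving out IgG replicate 3 or 4, or anti-CD8a replicate 1 or 2, left none lower. Dffa, Parp1 and Xiap were higher by 0.89, 0.55 and 0.41, and Birc6 was lower by -1.41. Their count of higher genes was 1 without IgG replicate 3 or anti-CD8a replicate 1, and 2 genes were lower without IgG replicate 1 or 2. None of Casp1, Casp2, Casp4 and Casp12 passed, and 1 of them was higher without anti-CD8a replicate 2. Capn6 was higher by 1.51 and Capn15 was lower (adjusted p = 0.0118). Capn15 did not pass without anti-CD8a replicate 2, and 2 calpains were higher without IgG replicate 1.

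In anti-PD-L1 against control 34.7% of all genes were called, 20.8% higher and 13.9% lower. In the mitochondrial route 6 of 18 rose and 2 fell, near that share, with Bid at 1.25, Bcl2l11 at 1.10, Bmf at 0.96 and Cycs at -0.95. Bcl2, at -0.49, was lost in 9 of 16 alternatives, among them without control replicate 1, 2, 3 or 4 and without any 1 anti-PD-L1 library. Bcl2l1, at 1.20, was 0.51 without anti-PD-L1 replicate 2 (adjusted p = 0.407). Of the partners, Flnc, Ankrd1 and Ankrd2 rose by 1.97, 2.23 and 1.60, and Sptan1 fell by 0.80. Ankrd1 rested on anti-PD-L1 replicate 1, without which its value was 0.61 (adjusted p = 0.0821). Ankrd2 did not pass without that library or without anti-PD-L1 replicate 2, and 1 partner rose without anti-PD-L1 replicate 1.

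The remaining lists held few calls there. Birc6 and Birc3 rose by 0.93 and 0.68, and Dffa fell by 0.81. Tnfrsf1a rose by 0.69, and Cflar fell by 0.49. Capn6 fell by 1.32, and Casp4, an inflammatory caspase, rose by 0.81 (adjusted p = 0.0476). Casp4 did not pass without any 1 control library or anti-PD-L1 replicate 1. Cflar did not pass without control replicate 5 or anti-PD-L1 replicate 1 or 2, Dffa and Capn6 did not without anti-PD-L1 replicate 2, and 1 inhibitor rose without control replicate 2 or anti-PD-L1 replicate 1. The death receptor count that rose was 2 without control replicate 3, and 2 calpains rose without anti-PD-L1 replicate 2.

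In anti-CD8a against control the main edgeR fit called no gene of the 6 lists, and Bcl2 passed in 2 of 16 alternatives, DESeq2's test among them. In anti-PD-L1 against IgG, where 3.96% of all genes were higher and 1.54% lower, 2 genes of the lists were lower, Capn15 by -1.08 (adjusted p = 0.0468) and Neb, nebulin of the thin filament, by -0.83 (adjusted p = 0.0461). Capn15 did not pass without IgG replicate 1, 3 or 4, nor without replicate 1 or 3 of anti-PD-L1, and Neb did not without IgG replicate 1 or 4 or without any 1 anti-PD-L1 library. Without IgG replicate 2, 2 genes of the mitochondrial route were higher and 1 was lower, 1 partner was higher and 2 were lower. Without anti-PD-L1 replicate 2, 2 calpains and 1 caspase were higher and 1 mitochondrial gene was lower. In anti-PD-L1 against anti-CD8a 12.1% of all genes were higher and 7.65% lower. Flnc, Ankrd1, Bmf, Bbc3, Birc6 and Bak1 were higher, by 1.81, 2.58, 1.35, 1.93, 0.88 and 0.73, while Cycs and Dffa were lower, by -0.81 and -0.88. Ankrd1 was 0.96 without anti-PD-L1 replicate 1, and Bbc3 did not pass in 9 of 14 alternatives. Cycs did not pass without anti-PD-L1 replicate 2 or anti-CD8a replicate 2, nor Dffa without anti-PD-L1 replicate 2 or anti-CD8a replicate 1 or 2.

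Markers of other cells are given in TPM, which was itself shifted between groups by the median ratios above, and were not tested. Of the fibroblast list, the summed TPM was 739 to 927 in anti-PD-L1, 368 to 403 in anti-CD8a, 362 to 459 in IgG and 386 to 665 in control libraries, with Dcn, decorin, as the main part. Its collagen gene Col3a1 was at 1.88 to 10.7 TPM in anti-PD-L1, 6.68 to 30.7 in anti-CD8a, 0.59 to 3.58 in IgG and 40.1 to 72.2 in control libraries. Endothelial markers summed to 29.4 to 54.0 TPM in anti-PD-L1, 27.5 to 52.6 in anti-CD8a, 27.5 to 52.5 in IgG and 29.6 to 61.6 in control libraries. The satellite cell genes Pax7 and Myf5 together stayed at 0.48 to 1.22 TPM over all libraries. The part of these cells in the calpain and caspase values was not tested.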

How the data were processed

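Total RNA of tibialis anterior was sequenced after a directional MGIEasy library preparation, per the labels' protocols. Reads went through Trim Galore, STAR 2.7.9a and RSEM 1.3.3, per the submitters' processing notes; the genome build and annotation, and whether strand was used in counting, are not given in the sources used here. The authors deposited, for each gene and library, RSEM expected counts, TPM values and the mean transcript length. Other deposited columns were not used. Of 55416 genes, 52083 matched a symbol.

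Expected counts were rounded to whole numbers and tested with edgeR 4.0.16 (quasi-likelihood test, TMM scaling, filterByExpr, 1 fit of all 15 libraries and 4 groups without a block), with Benjamini-Hochberg adjustment over 14372 genes and a threshold of 0.05. Intervals are 95% intervals of the fit. The labels do not say that libraries came from separate mice, so p-values measure the spread between these libraries. TPM, ratios and transcript lengths were described without a test. A count of 0 would allow up to 3 counts; no member was at 0, and intervals cover counting error and library spread only as far as the fit does. The scripts were tested on simulated data with known changes in a small part of the genes. That test does not cover scaling where many genes differ, as in IgG against control with 58.5% called. DESeq2 1.42.0, other scalings, no filter, 2 groups alone, a replicate block, no mitochondrial genes and leaving out libraries were the alternatives.

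The 8 genes and the 6 lists were chosen with earlier results of these data known. Of each list, the text names up to 3 genes with the smallest p in IgG against control and those whose direction differs between comparisons, and for each of the 8 genes the 2 that correlate most with it. Birc2, Birc3, Casp4, Htra2, Pmaip1, Sptan1 and Xiap were named after their values were seen. Promoter sequences are from RefSeq, build GRCm38.p6, matched by symbol for 8 of 8 genes. Some genes of these lists are not reported here. Gene coordinates of the deposited tables were not used here.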

Additional observations from a re-analysis of the deposited data

Results flagged for a closer look

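Among 58 groups of 4 or 5 libraries examined for 1 value far from the rest, 3 were flagged. That is near the rate of about 1 in 20 that chance gives. Casp8 was at 0.41 TPM in IgG replicate 1, the lowest of its group, against 1.29, 1.44 and 1.32 TPM in the other IgG libraries. Casp9 was at 1.35 TPM in control replicate 5, the highest of its group, and Capn2 at 71.59 CPM in control replicate 3, again the highest.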

How the results depend on the processing

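Over the 8 genes, 6 comparisons and all alternatives, 672 of the single-gene values kept their direction and their side of the threshold, 31 lost the call and 14 gained it. Another 27 changed sign, in 13 gene and comparison pairs not called before or after. The number of the 8 genes called in anti-PD-L1 against anti-CD8a was 1 with DESeq2 size factors, upper-quartile scaling or DESeq2's test. In anti-PD-L1 against control it was 2 without a filter, with the replicate block, or with replicate 2 of IgG and of anti-PD-L1 left out, and without both of those it was 1 in anti-PD-L1 against IgG. Over all genes, anti-CD8a against control gave 7 calls with upper-quartile scaling, 67 without a filter, 68 with DESeq2, 56 with 2 groups alone, 0 with the block and 12 without both libraries. Anti-PD-L1 against IgG gave 1807 with DESeq2, 37 with 2 groups alone, 69 with the block and 4213 without both libraries, and anti-PD-L1 against anti-CD8a gave 1712 with 2 groups alone, 1721 with the block and 1760 without both. As log2 ratios of IgG over control means, CPM in place of TPM gave -0.61 for Capn1, 0.38 for Capn2, 0.69 for Capns1, 0.86 for Cast and -0.77 for Casp9. The cause of these moves was not tested, except that CPM does not divide by transcript length.

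Leaving out 1 library, the genes called ranged from 7665 to 8669 in IgG against control, 3014 to 4931 in anti-PD-L1 against control, 0 to 2 in anti-CD8a against control, 144 to 2712 in anti-PD-L1 against IgG, 5688 to 7337 in anti-CD8a against IgG and 1226 to 3013 in anti-PD-L1 against anti-CD8a. Of the 8 genes, 5 to 7, 1 to 4, 0 to 0, 0 to 1, 4 to 5 and 0 to 1 were called in these comparisons. The Cast length difference ranged from -899 to -704 bases and the ratio difference from 0.670 to 0.889. The labels state no pairing of replicate numbers. After group means were taken out, 3 of 19 pairs of same-numbered libraries correlated above 0.1. In groups this small, that check cannot show whether the numbers mark something shared, so the block was kept as an alternative only. The caspases had at most 106 counts in a library, which limits what can be seen of them.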
